A study of Mus musculus with 10 samples.

Results

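The narrow H3K27me3 regions at CpG-rich promoters of protein-coding genes are described here, as profiled by CUT&Tag in LT-HSCs, the long-term stem cells of the blood. CUT&Tag directs the Tn5 transposase to an antibody-bound chromatin mark, so that sequenced fragments lie where the mark was. There were 3 libraries from IκBα wild-type (WT) embryos and 3 from IκBα knockout (KO) embryos, all from fetal liver at E14.5, sorted as LSK CD48-CD150+ cells. The KO carries a targeted allele of Nfkbia, the gene of the NF-κB inhibitor IκBα, in every cell type of the embryo, embryos came from matings of heterozygous animals, and the labels do not say how many embryos entered a library. Reads were 75 bp long in replicates 1 and 2 and 50 bp long in replicate 3 of both genotypes. A further 4 samples of the series profiled IκBα itself and were not analysed here.

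Peaks of replicates 1 and 2 of both genotypes were merged where they overlapped by at least 1 bp, which gave 6929 regions. A region was kept when peaks of at least 2 of the 4 libraries supported it and when it was narrower than 12000 bp. It also had to overlap a promoter of a CpG-rich coding gene, called a CpG-rich promoter here. A promoter ran from 5000 bp upstream to 100 bp downstream of a transcription start site (TSS), and a gene counted as CpG-rich when the 500 bp on each side of any of its TSSs had a GC content of at least 0.55 and an observed over expected CpG ratio of at least 0.65. This rule kept 1556 regions, 22.46% of all merged regions and 33.7% of the 4611 regions supported by at least 2 libraries. Of these, 1268 spanned a CpG-rich TSS, and the overlapped promoter could be that of another TSS of the gene. The regions were therefore chosen by the measured peaks and widths of replicates 1 and 2, whereas the replicate 3 libraries had no part in the choice. At the width limit, the widest region kept was at Rbfox3 (11995 bp) and the narrowest one left out was at 4930412O13Rik (12001 bp). At the CpG limit, Mei1 was kept at an observed over expected ratio of 0.65 and Tent5b was left out at 0.6499.

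H3K27me3 is placed by Polycomb repressive complex 2 (PRC2) and is found at silent genes, in particular those of developmental regulators whose promoters lie in CpG islands. CpG islands are mostly unmethylated stretches of DNA rich in CpG dinucleotides, and they are also found at the promoters of active housekeeping genes, which lack H3K27me3. PRC1, a second Polycomb complex, contains Cbx proteins that bind the mark.

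The promoters below show what such sequences look like. Each line gives the 250 bases before a TSS, written in the direction of transcription from the GRCm38.p6 reference, with every CpG in capitals. Emx1, Foxc1 and Paqr4 are shown because their regions were among the strongest in all 6 libraries. Cadm1 and Rasgef1a stand for the members with the smallest p between genotypes in each direction whose sequence could be printed by the rule, Nes and Dact1 for regions called in 1 genotype of replicates 1 and 2, and Ncan for the narrow regions at CpG-poor promoters, as a contrast.
Emx1, chr6:85187188-85187437, plus strand: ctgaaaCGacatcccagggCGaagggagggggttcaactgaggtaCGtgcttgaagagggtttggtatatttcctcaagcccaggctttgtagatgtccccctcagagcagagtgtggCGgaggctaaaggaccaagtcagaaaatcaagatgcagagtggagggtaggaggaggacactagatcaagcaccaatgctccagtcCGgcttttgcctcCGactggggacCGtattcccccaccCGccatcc
Foxc1, chr13:31806383-31806632, plus strand: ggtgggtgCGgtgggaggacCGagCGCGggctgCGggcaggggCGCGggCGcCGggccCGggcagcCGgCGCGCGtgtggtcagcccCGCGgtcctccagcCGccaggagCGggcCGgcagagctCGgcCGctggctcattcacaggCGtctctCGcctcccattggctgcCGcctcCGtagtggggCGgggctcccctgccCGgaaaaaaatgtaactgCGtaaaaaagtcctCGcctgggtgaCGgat
Paqr4, chr17:23740399-23740648, minus strand: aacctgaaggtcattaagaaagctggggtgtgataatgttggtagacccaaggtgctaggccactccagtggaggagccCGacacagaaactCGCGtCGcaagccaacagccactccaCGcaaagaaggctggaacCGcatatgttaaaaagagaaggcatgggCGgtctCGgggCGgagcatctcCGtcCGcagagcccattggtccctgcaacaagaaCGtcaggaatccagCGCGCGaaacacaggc
Cadm1, chr9:47529923-47530172, plus strand: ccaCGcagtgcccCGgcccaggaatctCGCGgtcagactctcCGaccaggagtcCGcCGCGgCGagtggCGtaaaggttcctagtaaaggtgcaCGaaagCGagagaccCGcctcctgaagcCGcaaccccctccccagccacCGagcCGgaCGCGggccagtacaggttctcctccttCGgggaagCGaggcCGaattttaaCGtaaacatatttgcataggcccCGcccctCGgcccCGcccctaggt
Rasgef1a, chr6:118011188-118011437, plus strand: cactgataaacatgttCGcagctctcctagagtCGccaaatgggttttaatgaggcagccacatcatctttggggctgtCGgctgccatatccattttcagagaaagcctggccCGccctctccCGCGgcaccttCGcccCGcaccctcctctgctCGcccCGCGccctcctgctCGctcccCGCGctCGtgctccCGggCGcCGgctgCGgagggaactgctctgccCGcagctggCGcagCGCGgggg
Nes, chr3:87970828-87971077, plus strand: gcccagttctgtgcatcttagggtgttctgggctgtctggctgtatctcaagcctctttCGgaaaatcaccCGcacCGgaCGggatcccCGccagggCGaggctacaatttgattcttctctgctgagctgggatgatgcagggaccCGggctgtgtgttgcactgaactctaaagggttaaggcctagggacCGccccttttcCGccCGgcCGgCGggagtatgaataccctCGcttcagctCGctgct
Dact1, chr12:71309634-71309883, plus strand: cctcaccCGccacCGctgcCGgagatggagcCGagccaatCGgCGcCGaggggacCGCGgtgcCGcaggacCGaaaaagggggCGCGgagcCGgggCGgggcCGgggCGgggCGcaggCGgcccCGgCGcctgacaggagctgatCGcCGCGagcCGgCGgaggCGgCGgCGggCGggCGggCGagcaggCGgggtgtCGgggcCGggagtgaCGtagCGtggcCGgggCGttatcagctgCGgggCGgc
Ncan, chr8:70120874-70121123, minus strand: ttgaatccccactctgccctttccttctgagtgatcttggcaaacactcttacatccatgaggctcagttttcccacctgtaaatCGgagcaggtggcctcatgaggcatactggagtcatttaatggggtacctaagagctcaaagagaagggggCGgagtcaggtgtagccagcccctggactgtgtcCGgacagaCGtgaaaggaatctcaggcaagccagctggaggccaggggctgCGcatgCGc

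The stretches before the Dact1 and Foxc1 start sites held 41 and 30 CpGs, and those before Cadm1 and Rasgef1a held 25 and 23. The Emx1 stretch held only 8, and its gene qualified by the bases on both sides of the TSS (observed over expected ratio 0.665). The Ncan stretch held 6 CpGs, at a GC content of 55.2% that was close to that of Emx1 (55.6%).

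The members were supported by peaks in all 4 libraries of replicates 1 and 2 in 997 cases, in 3 in 310 cases and in 2 in 249 cases, and 323 members had a peak in all 6 libraries. Widths ran from 1821 to 11995 bp with a median of 5786 bp. A TSS of the CpG-rich gene lay inside 1433 members (92.1%). Where a CpG-rich TSS lay inside (1268 members), the region reached a median of 2574 bp upstream and 3360 bp downstream, and 67.7% reached farther downstream than upstream. The members held a median of 28.2 CpGs per kb, against 21.0 in narrow regions at CpG-poor promoters, 22.1 in broad regions and 15.4 in narrow regions inside coding genes, an order that the CpG condition of the rule helps to set. They held a median of 1160 bp of CpG-rich sequence, and 105 members held no CpG-rich stretch.

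The median maximum signal at members, the highest fragment coverage in a peak, was 9 in WT replicate 1, 10 in WT replicate 2, 6 in WT replicate 3 and 10 in each KO library. WT replicate 3 stood apart with 1047 peaks, against 2325 in KO replicate 3 and 4160 to 6013 in the other 4 libraries. Total and maximum signal were deposited without scaling. Totals below are these unscaled values and do not compare directly between libraries. Relative levels are divided by the median total signal of all peaks of the same library. That median was 4303 in WT replicate 3, 10398 in KO replicate 3 and 12362 to 13972 in the other 4 libraries. Nfkbia had no promoter peak in any of the 6 libraries, so the genotype labels could not be checked from the peaks. Markers of the sorted cells (Kit, Ly6a, Slamf1, Ptprc and Procr) had no promoter peak, nor had the hepatocyte genes Alb, Afp and Ttr. Absence of the repressive mark does not show expression. Of the markers checked, Pdgfra, a mesenchymal receptor, and Kdr, a VEGF receptor, were among the members. The Pdgfra promoter had a peak in 6 libraries, and that of Kdr in 1 (WT replicate 2). Hba-a1 and Col1a1 had peaks at promoters that were not CpG-rich.

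The 1556 regions lay at 1432 of the 9274 CpG-rich coding genes (15.4%). A further 305 had a broad region (12000 bp or wider) and no narrow one, and 7307 (78.8%) had no promoter peak in any library. The share with a narrow region ranged from 10.98% on chromosome 17 to 20.1% on chromosome 18 among autosomes, and was 5.24% on the X chromosome (10 of 191 genes). The sex of the embryos is not given in the labels.

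The 8 strongest members with peaks in all 6 libraries were at Emx1, Pcdh1, Foxc1, Paqr4, Dgat1 with Scrt1, Hic1, Kcnc4 and Zfp316 (region 1 of 2). They were ranked by relative total signal, a sum that can grow with the width of a region. Emx1, a homeobox factor of the forebrain, had the highest level (chr6:85185531-85196115, 10585 bp). Its total signal was 49217, 61404 and 12038 in WT replicates 1 to 3 and 60484, 46808 and 20914 in KO replicates 1 to 3. Relative to each library's median peak this was a geometric mean of 3.47, and the genotypes overlapped.

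Foxc1, a forkhead factor of mesoderm and vessels, had totals of 34890, 48606 and 10645 in WT and of 50280, 45075 and 33762 in KO (chr13:31797454-31809388, 11935 bp). Hic1, a transcriptional repressor, was the only one of the 8 whose highest relative levels were in replicate 3 of both genotypes. Its totals were 24339, 33576 and 17978 in WT and 32605, 27996 and 52517 in KO. Paqr4, which encodes a membrane protein of the progestin and adipoQ receptor family, had its lowest relative level in WT replicate 3, at 0.892, against 3.85 and 3.54 in the other WT libraries and 3.56 to 4.39 in KO. The narrowest members present in all 6 libraries were at Itga8 (3277 bp), Foxj1 (3286 bp) and Sync (3483 bp).

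**Figure D1:**
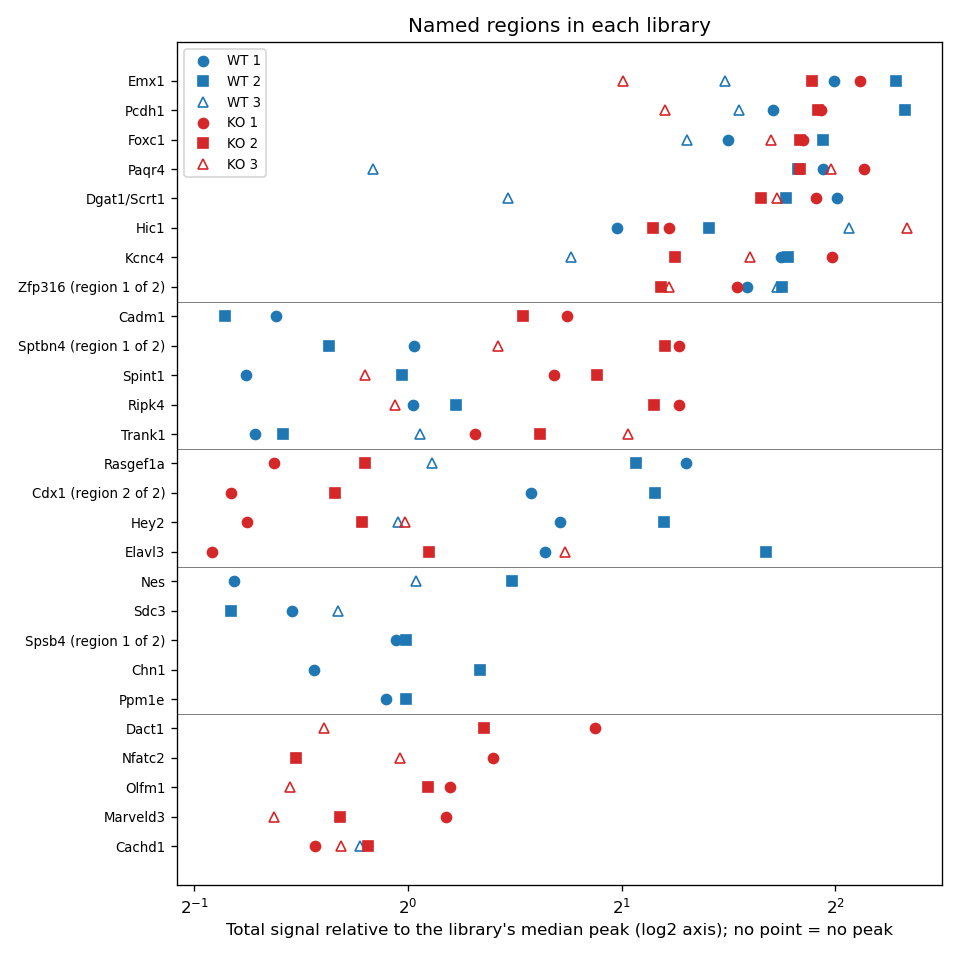
Total signal of named regions in each library, relative to the library's median peak, on a log2 axis; colour gives the genotype and the marker the replicate, and no point means no peak. From the top, the blocks hold the 8 strongest regions, those with the smallest p between genotypes (5 higher, then 4 lower in KO), and those called only in WT and only in KO among replicates 1 and 2. The genotypes overlap in the top block, where Emx1 had the highest geometric mean (3.47).

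The genes under the members were sorted into families by symbol. More homeobox and forkhead genes lay at broad regions alone than at narrow ones. Of the CpG-rich homeobox genes outside the Hox clusters, 25 (24.5%) had a narrow region and 67 (65.7%) only a broad one. The Hox cluster genes had 6 of 23 at narrow regions and 15 of 23 only at broad ones, and the forkhead genes had 4 of 33 and 15 of 33. Basic helix-loop-helix factors, which drive neural, muscle and other fates, were instead mostly narrow, with 20 of 29 genes (69.0%), among them Olig1, Twist1 and Hes1. The Zic and Gli factors, which include effectors of Hedgehog signalling, had 5 of 7. Genes named Zfp, a large class of zinc finger factors, had 12 of 153 (7.84%), and 138 had no promoter peak. Krueppel-like and Sp factors had 6 of 20, and neither group had a gene at broad regions alone.

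The groups of ion channel, neurotransmitter receptor, cadherin and matrix genes each had over 50% of their CpG-rich members at narrow regions. Cadherins and protocadherins, which join cells to each other, had 16 of 18 CpG-rich genes at narrow regions (88.9%) and none at broad regions alone. Monoamine and adrenergic receptors had 10 of 12 (83.3%), potassium channels 34 of 45 (75.6%), calcium and sodium channel genes 14 of 21 (66.7%), and receptors for glutamate, GABA, glycine and acetylcholine 12 of 22 (54.5%). Collagens had 9 of 12, and ADAMTS proteases with laminins 10 of 15. Kcnc4, a voltage-gated potassium channel, had totals of 41468, 43364 and 7298 in WT and of 55288, 30052 and 31546 in KO. Adrb1, the beta-1 adrenergic receptor, had totals of 21327 and 25607 in WT replicates 1 and 2, 35010, 31178 and 26115 in KO, and no peak in WT replicate 3.

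Among genes of signalling pathways, 11 of 17 FGF ligands and receptors, 8 of 20 Wnt ligands and Frizzled receptors and 9 of 26 genes of the BMP and TGF-beta family had a narrow region. Ephrins and Eph receptors had 6 of 14, and Notch receptors and ligands 1 of 6. A region at Fgf4 had totals of 19136, 48336 and 3407 in WT and of 26962, 38799 and 19465 in KO. Another, shared by Fgf3 and Fgf4, had 19982, 28107 and 7226 in WT and 23979, 21404 and 19073 in KO. Of 10 CpG-rich retinoic acid genes, 6 had one: the synthesising enzymes Aldh1a2 and Aldh1a3, the degrading enzymes Cyp26a1 and Cyp26b1, the receptor Rara and the carrier Rbp4. Cyp26a1 had totals of 30977, 44185 and 3381 in WT and of 52040, 35534 and 7138 in KO, and the genotypes overlapped. None of the 11 NF-κB factors and inhibitors had a promoter peak.

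Of 20 CpG-rich regulators of blood stem cells and lineages, 5 had a narrow region, namely Cebpa, Id2, Runx3, Tcf7 and Zbtb16. Cebpa, a factor of myeloid cells, had totals of 18713 and 33426 in WT replicates 1 and 2 and of 29402, 9192 and 15085 in KO, with no peak in WT replicate 3. Endothelial genes had 7 of 12, and cyclin-dependent kinase inhibitors 2 of 8. The narrow region at Cdkn2a, which encodes cell cycle inhibitors, had a peak only in WT replicate 2 (6951) and KO replicate 1 (6865), and another region near the gene, not a member, had peaks in all 4 libraries of replicates 1 and 2. Of 28 Polycomb subunit genes, 2 (7.14%) had a narrow region and 22 had no promoter peak. Ribosomal proteins (65 genes), proteasome subunits (25), NADH dehydrogenase subunits (21) and translation initiation factors (44) had no promoter peak at all.

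**Figure D2:**
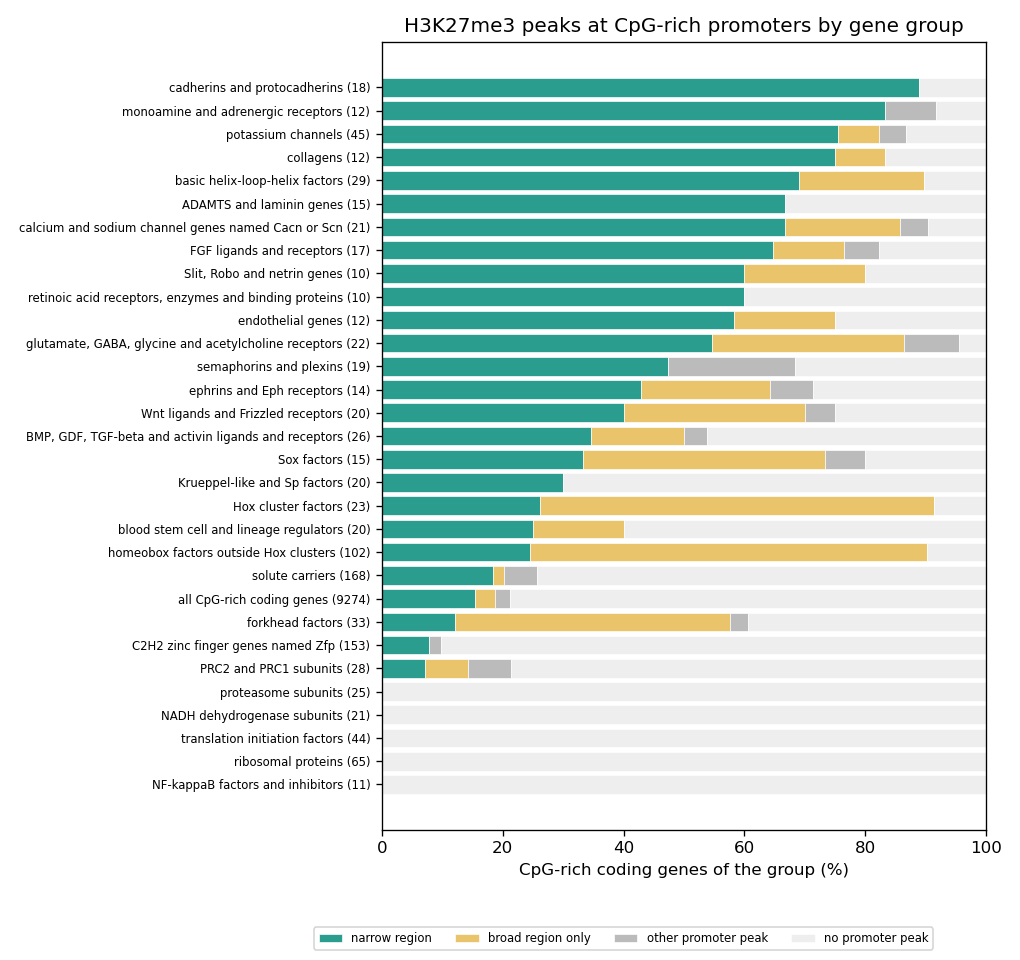
Share of the CpG-rich coding genes of each group (number in parentheses, groups of at least 10) with a narrow region, only a broad region, another promoter peak or no promoter peak, in percent. Cadherins stand highest in narrow regions (88.9%), homeobox and Hox genes were mostly in broad regions, and housekeeping groups had none.

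The replicate 3 libraries gave peaks that the choice of regions had not used. WT replicate 3 had a peak at 416 members (26.7%, exact 95% binomial interval 24.5 to 29.0) and KO replicate 3 at 934 (60.0%, 57.5 to 62.5), against 19.3% and 41.3% of all 4611 regions. Intervals cover counting error only, and with 1 library a side this compares libraries, not genotypes. When the same number of strongest peaks was taken from each (1047), KO replicate 3 had a peak at 26.6% of the members, against 26.7% in WT replicate 3.

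Narrow regions at CpG-poor promoters (1006) had a peak in replicate 3 in 13.9% (11.8 to 16.2) of cases in WT and in 36.8% (33.8 to 39.8) in KO, and these intervals lay below those of the members. Narrow regions within coding genes were found in 4.84% and 11.2%, and broad regions in 51.8% and 83.2%. Median widths were 5786 bp for members, 5070 bp for narrow CpG-poor promoter regions, 4845 bp within coding genes and 16300 bp for broad regions. The parts of width and signal in these class shares were not tested. Among regions with peaks in all 4 libraries of replicates 1 and 2, the shares were 35.9% and 75.9% at CpG-rich promoters and 20.6% and 55.6% at CpG-poor ones. Where a peak had to cover at least 0.5 of the region, the CpG-rich share in WT replicate 3 fell to 1.28% and the order of both classes turned, by 0.21 percentage points.

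**Figure D3:**
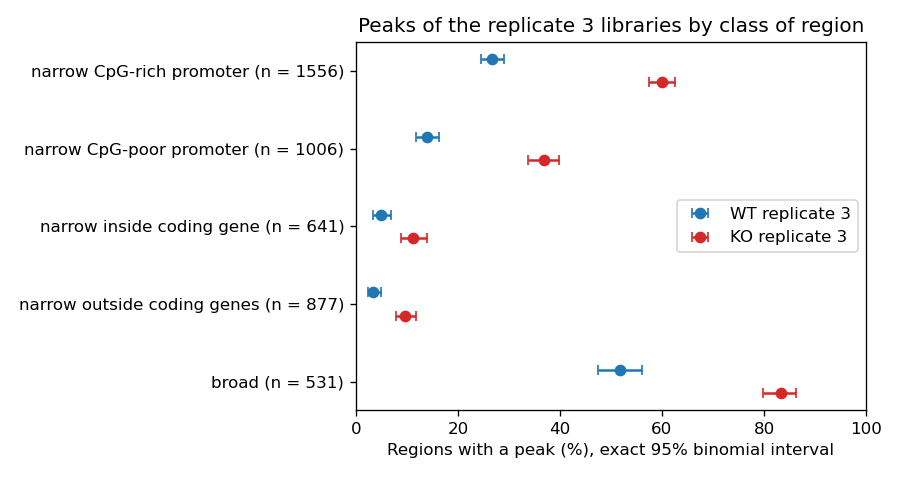
Percent of regions of each class with a peak in WT or KO replicate 3, with exact 95% binomial intervals; n is the number of regions. Narrow CpG-rich promoter regions were at 26.7% and 60.0%, above the other narrow classes and below the broad regions.

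Members were set in order of the CpG-rich sequence they held, a length that the width of a region bounds. In the quartile of members with the least of it (median 580 bp) the median width was 4684 bp, and in the quartile with the most (2010 bp) it was 7706 bp. Across the quartiles, the share with a peak in WT replicate 3 was 9.46%, 22.2%, 30.6% and 45.1%, and in KO replicate 3 it was 28.6%, 56.6%, 70.1% and 85.4%. Wider regions offer more bases to overlap, and the part of width in these shares was not tested. Across the 1556 members, CpG-rich length and width correlated with a Spearman rho of 0.39, as a description, since regions share libraries and are not independent. CpGs per kb, which do not grow with length, correlated with width at a rho of -0.29. Signal height followed CpG content less closely. The rho of CpG-rich length with maximum signal lay between 0.20 and 0.25 over the 75 bp libraries and was 0.09 (WT) and 0.13 (KO) for replicate 3. That of CpGs per kb with maximum signal was between -0.05 and 0.07 in the 6 libraries.

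The position of highest coverage in each peak also differed between the batches of read length. In replicates 1 and 2, 38.6% to 45.0% of these positions lay in CpG-rich sequence, which took up 25.6% to 28.1% of the mean peak. In replicate 3 the shares were 76.0% (WT) and 79.4% (KO), in peaks that were CpG-rich over 60.0% and 46.7% of their length. The median distance to the CpG-rich TSS was 935 to 1092 bp in replicates 1 and 2 and 443 and 394 bp in replicate 3. In every library more positions lay downstream of the TSS than upstream (55.8% to 62.8%). Read length, peak number and peak width all differed between the batches and cannot be told apart here.

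**Figure D4:**
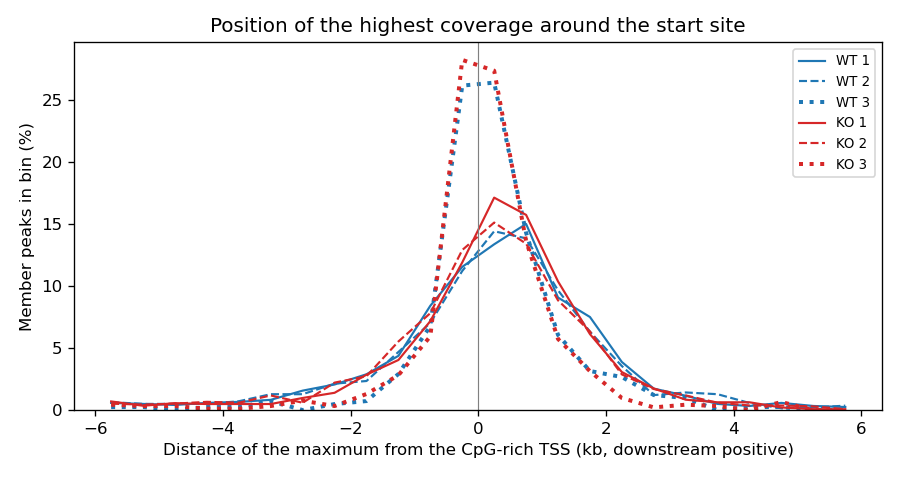
Percent of member peaks whose highest coverage falls in each 500 bp bin, by distance from the CpG-rich TSS in kb, one line per library. The dotted lines of both replicate 3 libraries rise around the start site, with median distances of 443 and 394 bp, and the lines of replicates 1 and 2 are broader.

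The height and width of peaks were compared between narrow regions at CpG-rich and CpG-poor promoters. Both classes were selected on peaks and width in replicates 1 and 2, so that only replicate 3 is independent of the choice. Peak width here is the length of all peaks of a library in a region, added together. Its median was higher at CpG-rich promoters in 6 of 6 libraries, by 1.10-fold on average (log2 ratio 0.14 ± 0.10 (SD, n = 6)). The log2 ratio was 0.16 to 0.23 in the 4 libraries used for the choice and only 0.0091 (WT) and 0.018 (KO) in replicate 3, so no p-value is given. Mean signal per covered base was 1.02-fold higher (log2 ratio 0.03 ± 0.03 (SD, n = 6)). The medians of maximum signal were equal in 5 of 6 libraries, and in KO replicate 3 they differed by 0.15 on the log2 scale.

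Short sequence motifs were counted on both strands in the 300 bases around the start site (250 before to 50 after) of the CpG-rich genes. The CpG number was alike, with a median of 29 in the 1432 genes at members and of 28 in the 7307 without a promoter peak. The ETS motif CCGGAAG, bound by a family of factors common at housekeeping promoters, was in 4.54% of promoters at members, in 21.7% of those without a peak and in 18.1% of all CpG-rich promoters. Promoters with only a broad region held this motif in 4.59% of cases, the half-site and NRF1 motif that follow in 28.9% and 3.28%, and the TATA box in 5.57%. The cyclic AMP response half-site TGACG was in 23.5%, 37.8% and 34.9%, and the NRF1 motif GCGCATG in 4.47%, 8.44% and 7.56%. The GC box GGGCGG, read by Sp factors, was in 77.2%, 78.1% and 77.9%. The TATA box TATAAA was in 5.52%, 3.64% and 4.0%. The κB consensus was in 14.0%, 11.2% and 11.7%. No direct repeat of the retinoic acid receptor type (DR1, DR2 or DR5) was in a promoter at a member, and 26 of the 9274 CpG-rich promoters held one. None of these letter strings holds another. A match is a string of letters and not a bound site.

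The study compared IκBα KO with WT cells, and the members were compared between genotypes in the same way as all regions. Over whole libraries, the share of peaks that lay at members was 31.2%, 25.03% and 41.4% in the WT libraries (replicates 1 to 3), and the KO libraries had 30.9%, 28.2% and 41.2%. The means were 32.5% ± 8.24 in WT and 33.4% ± 6.85 in KO (SD, n = 3 each, exact two-sided permutation test p = 1, with 0.1 the smallest p this design allows). The replicate 3 pair differed by less than the pairs of replicates 1 and 2. The median log2 relative total signal at members was 0.24 ± 0.20 in WT and 0.24 ± 0.19 in KO (exact p = 1).

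At the 997 members with peaks in all 4 libraries of replicates 1 and 2, log2 total signal was compared with limma, fitted over all 2558 such regions. No member passed an adjusted p (Benjamini-Hochberg) of 0.05, and of all regions 0% did. At an unadjusted p of 0.05, 21 members (2.11%) were higher and 23 (2.31%) lower in KO, against 1.76% and 2.89% of all regions tested. The median difference over members was 0.04 on the log2 scale, against -0.0080 over all regions, and the median standard error of a member was 0.35.

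**Figure D5:**
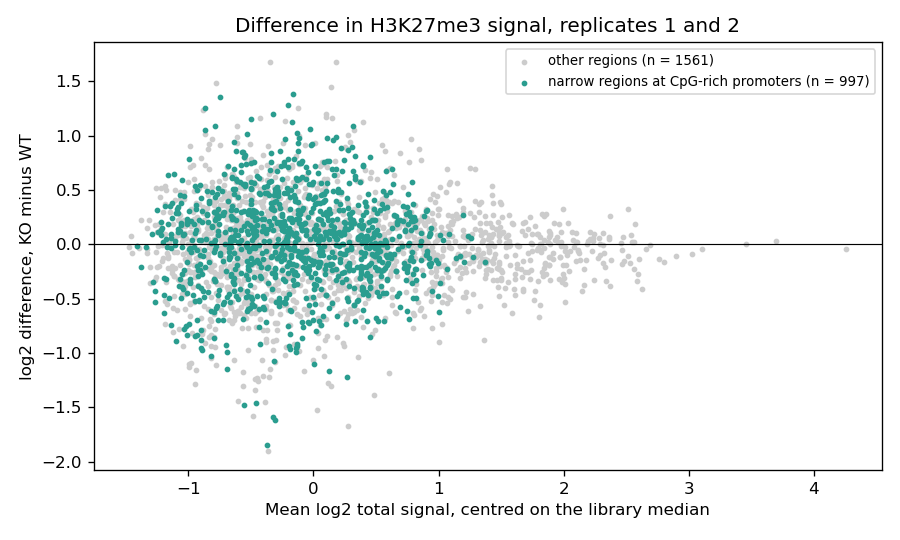
Difference in log2 total signal, KO minus WT, against mean log2 total signal centred on the library median, for the 2558 regions with peaks in all 4 libraries of replicates 1 and 2; each point is a region, and members (997) are in green. Members lie on both sides of 0, with a median of 0.04, and none passed the adjusted threshold.

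Members with the smallest p in each direction are given as values, since none passed the adjusted test. Hey2, a repressor downstream of Notch, had totals of 20224 and 28996 in WT and of 8291 and 10877 in KO (log2 difference -1.46, limma adjusted p = 0.997), but the highest coverage there, 9 and 12 in WT, reached 16 and 8 in KO. In replicate 3, the relative level of Hey2 was 0.969 in WT and 0.992 in KO. Rasgef1a, Elavl3 and the second region at Cdx1 had differences of -1.62, -1.59 and -1.47.

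In the other direction, Cadm1, a cell adhesion molecule, had totals of 8055 and 6978 in WT and of 23444 and 18323 in KO (chr9:47528958-47534903, log2 difference 1.35, SE 0.35, limma adjusted p = 0.997), and no peak in replicate 3. Trank1 had totals of 7525, 8424 and 4475 in WT and of 17357, 19366 and 21246 in KO. Relative to the median peak, its levels were 0.609, 0.667 and 1.04 in WT and 1.24, 1.53 and 2.04 in KO, and it was named for its values in replicates 1 and 2. In the fit of all 6 libraries its log2 difference was 0.87 (limma adjusted p = 0.993). Sptbn4 (region 1 of 2), Spint1 and Ripk4 had differences of 1.38, 1.151 and 1.06. Each had a peak in KO replicate 3 and none in WT replicate 3, but so had Elavl3, which was lower in KO, and KO replicate 3 had a peak at more members in all (934 against 416). All the named differences were smaller when another signal was taken in place of the total. For the 5 members higher in KO they were 0.16 to 0.57 with maximum signal and -0.023 to 0.32 with mean signal per covered base, where Cadm1 had 0.53 and 0.16. For the 4 given as lower they ran from -0.53 to 0.12 and from -0.42 to 0.14, and Rasgef1a had -0.53 and -0.11.

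Regions called in both libraries of 1 genotype and in none of the other were few. There were 62 members (3.98%) with peaks in both KO and no WT library of replicates 1 and 2, against 4.27% of all 4611 regions, and 27 (1.74%) with the opposite pattern, against 2.45%. The 62 had a peak in KO replicate 3 in 11 cases and in WT replicate 3 in 3 cases. Of the 160 members with a peak in 1 WT and 1 KO library, 21.9% had a peak in KO replicate 3 and 6.88% in WT replicate 3, against 17.7% and 4.84% of the 62. The 27 had a peak in WT replicate 3 in 2 cases and in KO replicate 3 in 3 cases. Their median relative totals were 0.705 and 0.698, against 1.46 at members with peaks in all 4 libraries. A missing peak says that a region fell below the limit of that library, and not that the mark was absent.

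Within each pattern, members with a replicate 3 peak of the same genotype were named first, so these replicate 3 peaks are no separate support. Of the KO pattern, Dact1, a regulator of Wnt signalling, had totals of 25668, 16168 and 7930 in the 3 KO libraries. It had no peak in WT. Nfatc2, a factor of T-cell activation, had totals of 18389, 8779 and 10135 in KO, and Olfm1 of 16019, 13482 and 7105, again with no peak in WT. Cachd1 was called in all KO libraries and also in WT replicate 3 (3685). Of the WT pattern, Nes, the intermediate filament of neural progenitors, had totals of 7026, 17700 and 4422 in the 3 WT libraries, and Sdc3, a cell surface proteoglycan, of 8488, 7126 and 3427. Neither had a peak in KO. The smallest total of any peak was 3344 in WT replicate 3 and 6711 in KO replicate 3, so these libraries differed in their call limits. The members at Spsb4 (region 1 of 2), Chn1 and Ppm1e were called in WT replicates 1 and 2 alone.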

How the data were processed

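H3K27me3 CUT&Tag was measured in 6 libraries, 3 WT and 3 KO, grouped and numbered by their labels. Nothing in the labels ties libraries to separate embryos, so the p-values measure the spread between libraries. The study's figure legend for this mark gives fewer than 3 independent experiments, whereas its reporting summary counts 3 independent replicates. The authors trimmed reads (Trim Galore 0.6.6), aligned them to GRCm38 (Bowtie2 2.4.4), removed multi-mapped and duplicate reads and called peaks in each library with SEACR 1.3 in stringent mode, keeping a fixed top share of blocks without an IgG control. The versions are from the submitters' processing notes. The deposited peak files give total and maximum signal (summed and highest fragment coverage) in whole numbers without scaling. The read totals that the study lists for its libraries were not used here, and the fragment coverage behind a peak limits the precision at weak peaks.

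Gene models were from GENCODE M21, and sequences were read from the RefSeq copy of GRCm38.p6. CpG-rich sequence within regions was scanned in windows of 200 bp in steps of 10 bp. After subtracting the library median, log2 total signal was tested with limma 3.58.1 (R 4.3.3), and library values with exact permutation or sign-flip tests in Python 3.11.15. The limma script was tested on simulated data. Over 718 regions, deviations from the group means had an r of 0.27, 0.31 and 0.48 between the WT and the KO library of each number, so the numbers were taken to pair libraries, although WT replicate 2 and KO replicate 1 also had an r of 0.27. Over the 2558 regions of the main fit, the difference between replicates 1 and 2 correlated between genotypes with an r of only 0.09. Alternatives changed the libraries, signal measure, scaling, peak threshold, overlap, CpG thresholds and promoter length. Regions were named by strength in all 6 libraries, by smallest p in each direction and by pattern over libraries. Others were named by nearness to a threshold, by width and by gene family. Within a pattern, members with a replicate 3 peak of the same genotype came first. A printed sequence had to lie inside its region, free of annotated exons and off chromosome 18, and the next region in order was taken otherwise. A few results that the rule would name are not reported here. The members, the lists and the tests were chosen with earlier results of these data known, and some family patterns were corrected after their first counts were seen.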

Additional observations from a re-analysis of the deposited data

How the results depend on the processing

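No member passed the adjusted limma threshold under any alternative run. At an unadjusted p of 0.05, the counts higher and lower in KO (21 and 23) were 3 and 2 with all 6 libraries, 51 and 7 with maximum signal, 48 and 35 with regions of at least 2 libraries and uncalled values set to the smallest signal, and 13 and 7 with peaks above the library median. With the replicate block they were 31 and 29, and with all 6 libraries and the replicate block, chosen after seeing the data, 6 and 8. Leaving out 1 library gave 7 (without KO replicate 2) to 49 (without WT replicate 1) higher, 44 without WT replicate 2, and 21 to 32 lower. The replicate block changed no call.

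The difference in the share of peaks at members (0.874 points) ranged from -3.01 to 5.29 when 1 library was left out, and was negative without WT replicate 2 (-2.88) and without KO replicate 3 (-3.01). The difference in median log2 relative total (0.0041) ranged from -0.10 to 0.12, with -0.05 without KO replicate 1, -0.05 without KO replicate 2 and -0.10 without WT replicate 3, and was -0.0038 with peaks above the median and -0.043 with equal peak numbers. None of these was past the threshold, and the cause of the changes was not tested.

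For CpG-rich against CpG-poor regions, means over regions in place of medians gave a log2 ratio of 0.037 for maximum signal and 0.13 for peak width, with no call drawn since 4 of the 6 libraries had chosen the regions, and maximum signal was -0.017 with peaks above the median. The share of members with a peak in WT and KO replicate 3 was 1.28% and 21.3% when 0.5 of the region had to be covered, 14.1% and 30.0% with peaks above the median, and 35.9% and 75.9% for regions of all 4 libraries. It was 26.6% in KO with equal peak numbers. The CpG-rich minus CpG-poor differences (12.8 and 23.2 points) were then -0.21 and 6.26, 7.38 and 14.2, and 15.3 and 20.3, and 12.9 in KO with equal peak numbers. Among named members, Hey2 turned to 0.12 with maximum signal and 0.14 with mean signal per covered base, and Sptbn4 and Spint1 to -0.023 and -0.0039 with the latter. Median maximum signal at members was 6 to 10 fragments per library, and the part of depth was not tested.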
